A study of Pilatotrama ljubarskyi with 14 samples.

Results

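The genes described here are those of the white-rot fungus Trametes ljubarskyi (listed by the archive as Pilatotrama ljubarskyi) whose deposited expression value peaked on pure cellulose. The genes were chosen by the deposited values themselves: a gene was taken when its cellulose value was at least 4 and exceeded the highest of its wheat straw, aspen, pine and maltose values by at least 1, all on the log2 scale, where 1 is a 2-fold difference. The rule gave 51 of the 878 genes in the table (5.81%), and 31 after quantile normalization of the columns. The same rule, applied to each of the other substrates, gave 8 genes for wheat straw, 2 for aspen, 9 for pine and 92 for maltose. Because the cellulose peak chose the genes, its size is given below as a description with no test, and tests are kept to differences that leave cellulose out.

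Strain BRFM1659 was grown in shaken liquid culture for 3 days at 30 °C, and polyA RNA of the mycelium was sequenced in 14 libraries. The cellulose group (3 libraries) had 15 g/l of Avicel, a purified microcrystalline cellulose, in a medium that also held 2.5 g/l of maltose. Wheat straw (3 libraries) and pine (2 libraries) were ground and sifted, and were likewise given at 15 g/l with 2.5 g/l of maltose. Aspen (3 libraries) was milled wood at 15 g/l with maltose in an amount that could not be read from the labels. Comparisons of aspen with wheat straw or pine may therefore also hold a difference in maltose dose, which was not tested. The maltose group (3 libraries) had maltose alone at 20 g/l. In any comparison with it, the solid substrate and the lower maltose dose cannot be told apart. All groups shared the same salts, yeast extract and thiamin. Whether the libraries of 1 substrate were grown as separate cultures is not stated in the labels, so p-values measure only the spread between these libraries, which may be technical.

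Cellulose is a polymer of glucose that lies in crystalline bundles in plant cell walls, and white-rot fungi open it with secreted enzymes. Endoglucanases cut within the chains, cellobiohydrolases release cellobiose from the chain ends, and lytic polysaccharide monooxygenases cleave the crystalline surface by oxidation. Beta-glucosidases then split cellobiose into glucose. In fungi such genes are known to be induced by breakdown products of the polymer and repressed by readily used sugars. Straw and wood present cellulose embedded in hemicellulose and lignin. The deposited table gives only gene numbers of the genome portal and does not pair them with names or functions, so which of the 51 genes encode such enzymes cannot be read from it, and none is assigned a role here.

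Values are the authors' deposited log2 normalized read counts, 1 per substrate, and they are not corrected for gene length. Whole reads of the single libraries were recovered from these values wherever exactly 1 set of counts gave the deposited digits, which was the case for 3960 of 4390 values (90.2%). For the cellulose-peaking genes this gave library values for all 51 on maltose and on pine, 39 on wheat straw, 36 on aspen and 16 on cellulose, since high values could not be resolved. The libraries of each substrate are lettered from A in order of falling relative depth, and which labelled replicate each one is remains unknown. Relative depth ran from 0.646 to 1.3. Across 691 genes recovered in every library, Pearson's r across genes ran from 0.966 to 0.993 within a substrate and from 0.703 to 0.951 between substrates.

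The median deposited value of the 51 genes was 13.68 on cellulose, 11.24 on wheat straw, 11.21 on aspen, 10.45 on pine and 7.11 on maltose. Over all 878 genes the medians lay between 8.87 on maltose and 9.36 on wheat straw, with 9.35 on cellulose. Of the 10 genes with the highest cellulose values in the table, 8 were among the 51, as were 14 of the top 20 and 23 of the top 50. As a share of the table's summed normalized reads, taken from the deposited log2 values, the 51 genes held 41.3% on cellulose, 13.6% on wheat straw, 16.8% on aspen, 5.04% on pine and 0.993% on maltose. The share covers this table of 878 genes and not the genome.

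**Figure D1:**
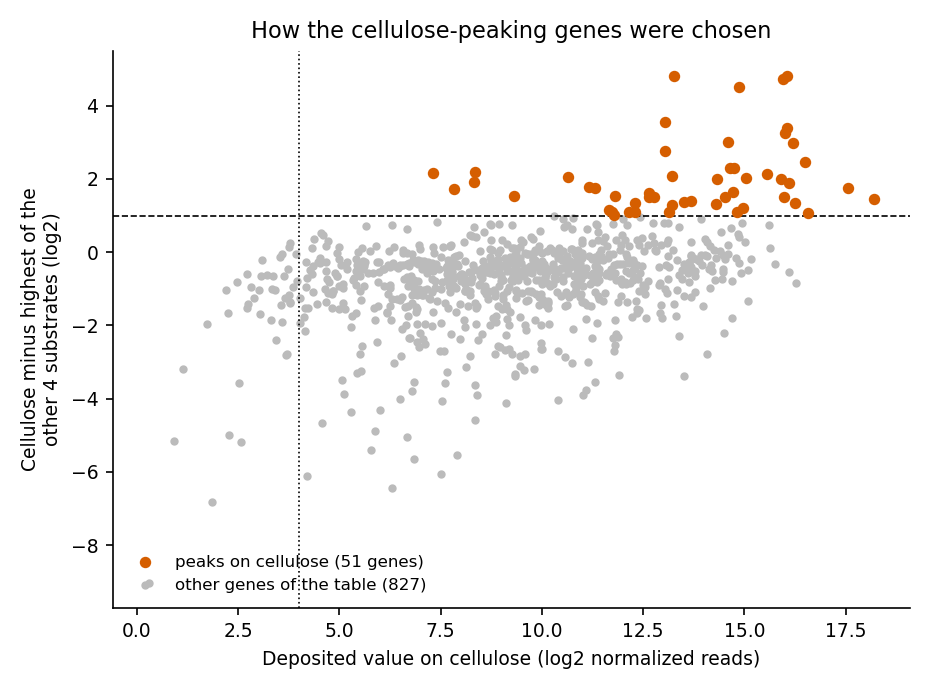
Each point is a gene; the x axis gives its deposited value on cellulose and the y axis that value minus the highest of its other 4 substrate values (both log2). The dashed and dotted lines mark the thresholds of 1 and 4, and the 51 chosen genes lie mostly at high cellulose values, with a median of 13.68 and a lowest value of 7.30.

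The distance to the next substrate varied widely among the 51 genes. Cellulose exceeded the highest other value by 1.01 to 4.81, with a median of 1.74, which is a 3.35-fold difference. The distance was under 1.5 for 16 genes, between 1.5 and 2 for another 16, between 2 and 3 for 12, between 3 and 4 for 3, and above 4 for 4. Gene 812861, just inside the threshold, had a distance of 1.009, and gene 487237 had 1.060. Just outside were gene 966316 with 0.994 and gene 390466 with 0.951, so the edge of the group is not marked by a break in the values.

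Genes 960322 and 949716 had the largest distances, with unlike values on the other substrates. Gene 960322 had a deposited value of 16.06 on cellulose, 11.24 on wheat straw, 11.05 on aspen, 10.45 on pine and 5.72 on maltose. Its libraries were at 11.44, 10.69 and 11.59 on wheat straw, 10.76, 11.09 and 11.29 on aspen, 10.48 and 10.43 on pine, and 6.0, 5.79 and 5.36 on maltose. Its 3 maltose libraries lay below all others recovered. Gene 949716 had 13.27 on cellulose, 8.20 on wheat straw, 8.46 on aspen, 7.81 on pine and 7.60 on maltose. Its recovered libraries lay between 7.38 and 8.60 on all 4 other substrates, so that cellulose alone stood out. The cellulose reads of both genes were too many to be resolved into libraries.

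The highest cellulose values belonged to genes 54315 and 1119518. Gene 54315 reached 18.19 on cellulose, the highest cellulose value in the table, with 16.76 on wheat straw, 16.58 on aspen, 15.30 on pine and 7.56 on maltose. Gene 1119518 had 17.57, 15.82, 15.27, 14.59 and 5.70 on cellulose, wheat straw, aspen, pine and maltose. Both had large values on all solid substrates, and their lead on cellulose, 1.44 and 1.74, was ordinary among the 51. Nearest the median cellulose value were gene 954875, with 13.68 on cellulose and 12.26, 11.78, 11.45 and 9.12 on wheat straw, aspen, pine and maltose, and gene 624051, with 13.51 on cellulose but 12.15 on maltose.

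In 16 of the genes reads were recovered in all 14 libraries. Every cellulose library lay above every other library in 15 of the 16, and in 6.51% of the 691 genes recovered in all libraries. The rule, which asks for a lead of the cellulose mean, largely fixes this separation, so nothing is read from it. The exception was gene 1035266, named here after its values were seen, whose lowest cellulose library was at 11.43 and its highest at 13.24, against 11.45 in the highest other library. The distance between the lowest cellulose library and the highest other library had a median of 0.82 and a largest value of 1.72. The SD between cellulose libraries had a median of 0.25 in these genes and 0.23 over the 741 genes recovered on cellulose. In gene 872085 the 3 cellulose libraries were at 8.18, 8.36 and 8.48. Library B held the highest of the 3 values in 10 genes, library C in 6 and library A in 0. The same count over all genes recovered on cellulose is not given, so this is not read as a trait of the 16. These 16 genes had cellulose values of at most 12.78, below the median of the group, and they do not show the spread of the other 35.

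**Figure D2:**
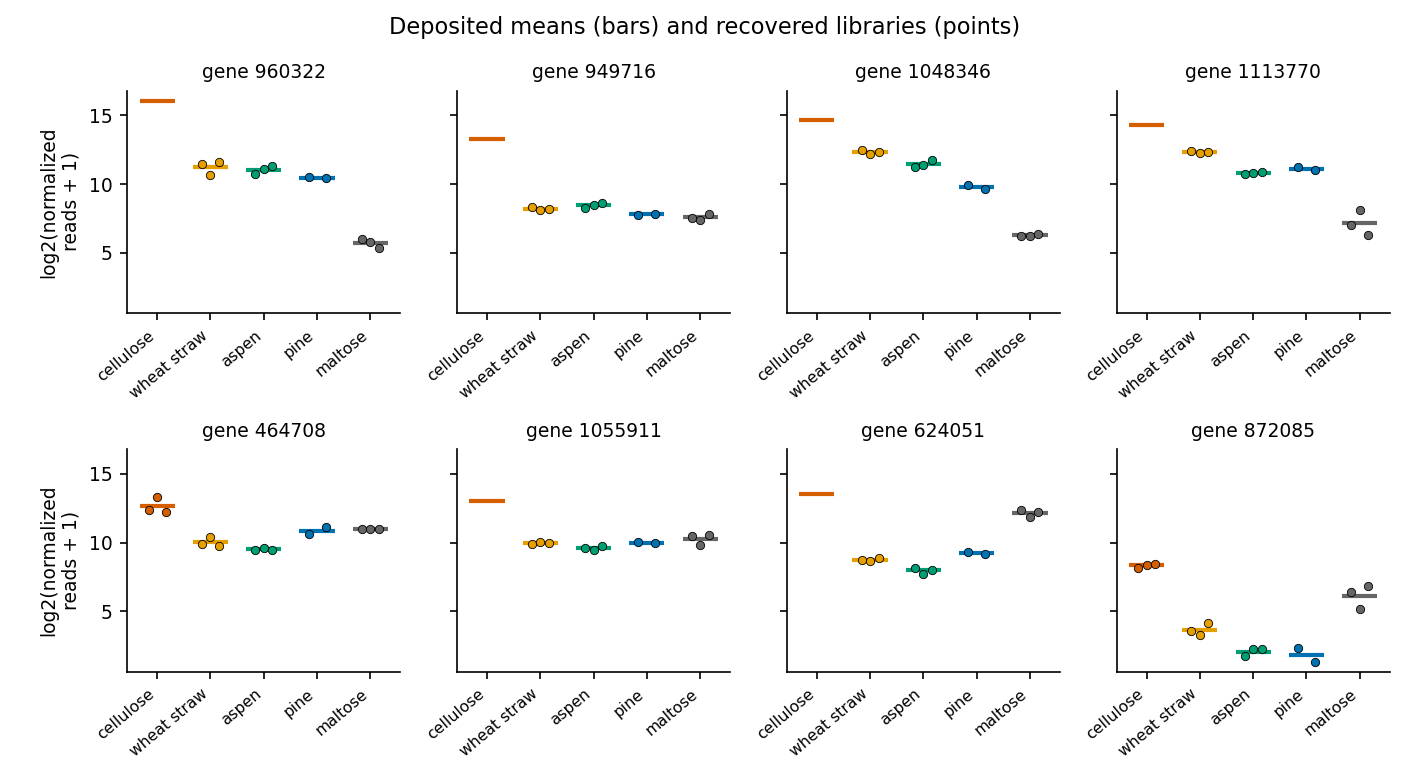
Deposited means (bars) and recovered single libraries (points) of 8 genes on the 5 substrates, on the log2(normalized reads + 1) scale; a bar without points is a value whose libraries could not be resolved. Genes 960322, 1048346 and 1113770 step down from cellulose over plant material to maltose, 949716 and 1055911 have means within 1 log2 unit of each other outside cellulose, and 624051 and 872085 are second-highest on maltose.

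The 51 genes can be split by their lowest substrate. In 36 of them maltose was the lowest of the 5 substrates, and their median values were 14.79 on cellulose, 12.33 on wheat straw, 12.20 on aspen, 10.96 on pine and 6.62 on maltose. In these genes cellulose exceeded maltose by 3.17 to 11.86, with a median of 8.14. In the other 15, a plant material was lowest, and the medians were 11.78 on cellulose, 9.02 on wheat straw, 9.14 on aspen, 9.23 on pine and 9.57 on maltose. In these, cellulose exceeded maltose by 1.11 to 4.45. The lead of cellulose over the next substrate was alike, with a median of 1.76 in the 36 genes and 1.63 in the 15. The split is read from the same deposited values and is a description.

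**Figure D3:**
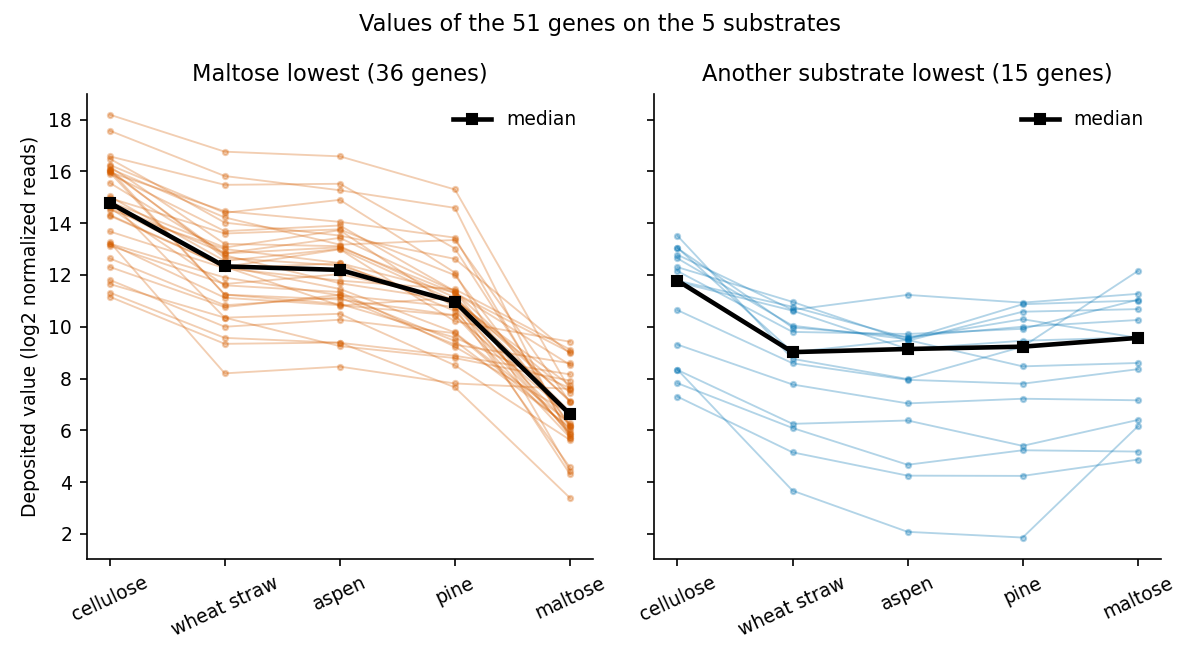
Deposited values (log2 normalized reads, y axis) of each cellulose-peaking gene on the 5 substrates (thin lines), with the median of the panel (black squares). The 36 genes with maltose lowest descend from a median of 14.79 on cellulose to 6.62 on maltose, and the medians of the 15 others are between 9.02 and 9.57 on the other 4 substrates, with single genes from 1.86 to 12.15.

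The substrate next to cellulose was wheat straw in 26 genes, aspen in 18, maltose in 7 and pine in 0. Among the 7 with maltose second, gene 1055911 had the largest distance, with 13.03 on cellulose and 10.26 on maltose. Its libraries were at 9.89, 10.04 and 9.98 on wheat straw, 9.64, 9.48 and 9.75 on aspen, 10.02 and 9.97 on pine, and 10.45, 9.79 and 10.53 on maltose. The maltose libraries of this gene overlapped those of wheat straw and pine.

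Of the differences that leave cellulose out, the first set plant material against maltose. The mean of the wheat straw, aspen and pine values was compared with maltose in 1 contrast of a limma fit over all 14 libraries. A gene was called at a Benjamini-Hochberg adjusted p under 0.05 over the 867 genes tested and a log2 difference of 1 or more in either direction. All 51 genes passed the filter on low values, which also counts cellulose, so their high cellulose values were enough to pass it. The rule used the values on these 4 substrates only through the highest of them, which does not fix the direction of any difference among them. It does keep out every gene highest on another substrate, such as the 92 that peak on maltose. The shares over all tested genes are not so limited. How far the rule by itself sets the shares of the 51 apart from those of all genes was not tested. Where a gene has no library values on a substrate, its error rests on its spread on the others. Cellulose libraries entered the error for 16 of the 51 genes, and for 12 it rests on the pine and maltose libraries alone.

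Most of the cellulose-peaking genes were also higher on plant material than on maltose. Of the 51, 35 rose (68.6%) and 3 fell (5.88%), where 26% of all tested genes rose and 18.6% fell (44.5% in either direction). The median difference was 4.08 in the 51 genes and 0.17 over all genes tested. The largest rises were in gene 1119518, with 15.23 on plant material and 5.70 on maltose, a difference of 9.53 ± 0.17 (log2, SE; limma adjusted p = 8.11e-10), and in gene 969318, with 13.80 and 4.44, a difference of 9.36 ± 0.20 (limma adjusted p = 2.55e-09). Only their pine and maltose libraries were recovered. Gene 969318 had 4073 and 2864 reads on pine, against 34, 17 and 15 on maltose. Left to the genes recovered on every plant material and maltose, 36 of the 51 were tested, with 20 higher and 3 lower, where 22.6% of all genes so tested were higher and 18.3% lower. The same counts were found without aspen library A, B or C, where 36 could be tested.

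The genes that fell were 872085, 624051 and 1125711, the last named after its values were seen. Gene 872085 had 12, 9 and 13 reads on wheat straw, 3, 4 and 4 on aspen, and 4 and 1 on pine, against 91, 35 and 105 on maltose. On cellulose it had 342, 373 and 369 reads, so its reads were fewest on the woods, above that on wheat straw and maltose, and most on cellulose. Its difference between plant material and maltose was -3.61 ± 0.34 (SE; limma adjusted p = 2.60e-07), a value that the 1 added inside the logarithm makes smaller. Gene 624051 had libraries at 8.77, 8.64 and 8.88 on wheat straw, 8.19, 7.72 and 8.03 on aspen, and 9.30 and 9.17 on pine, against 12.34, 11.87 and 12.25 on maltose. All its plant libraries lay below all its maltose libraries, with a difference of -3.50 ± 0.13 (SE; limma adjusted p = 1.81e-10). Gene 1125711 had 9.81 on plant material and 11.04 on maltose, a difference of -1.23 ± 0.10 (SE; limma adjusted p = 6.94e-08). The remaining 13 genes lay between -0.86 and 0.64 and were not called.

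**Figure D4:**
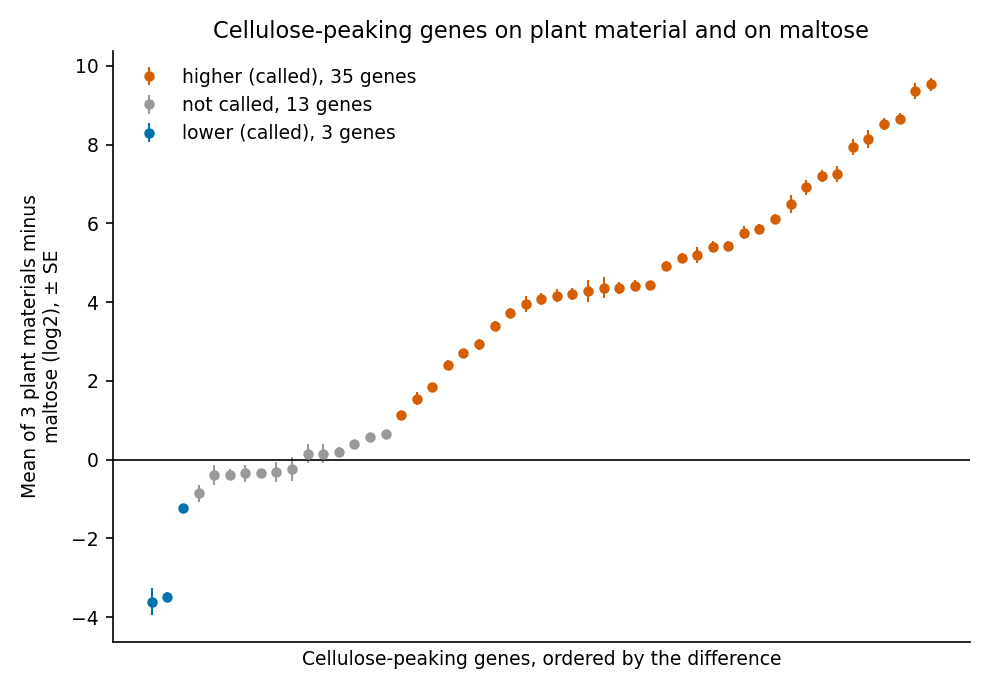
Log2 difference between the mean of 3 plant materials and maltose for the 51 cellulose-peaking genes, ordered by size, with standard errors from the limma fit. The 35 called higher run up to 9.53, 13 near 0 were not called, and 3 were called lower, down to -3.61.

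Each plant material was also set against maltose by itself, with the same maltose libraries in all 3 comparisons. On wheat straw 37 of the 51 genes rose and 3 fell relative to maltose, where 28.4% of all tested genes rose and 19.3% fell (47.6% in either direction). On aspen 35 rose and 5 fell, where 23.4% of all tested genes rose and 22.8% fell (46.3% in either direction). On pine 31 rose and 4 fell, where 29.5% of all tested genes rose and 18.1% fell (47.6% in either direction). The median differences of the 51 genes were 4.53 on wheat straw, 4.21 on aspen and 2.88 on pine, against 0.16, 0.09 and 0.33 over all tested genes. Without aspen library A, B or C, 36 genes could be tested for aspen, and 20 rose and 5 fell in each case. In the genes recovered on both aspen and maltose, 20 rose and 5 fell as well, where 21.8% of all genes so tested rose and 20.9% fell. Among all genes recovered in every library, the split on pine was 128 higher and 144 lower after quantile normalization, against 169 and 126 without it.

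The comparison of pine with maltose has library values for all 51 genes. The pine libraries lay wholly above the maltose libraries in 36 genes, wholly below in 6, and overlapped them in 9. Over the 787 genes recovered on both, 51.1% lay wholly above and 28% wholly below. The largest rise was again in gene 1119518, with 22706 and 16438 reads on pine, against 74, 48 and 37 on maltose, a difference of 8.89 ± 0.23 (log2, SE; limma adjusted p = 1.43e-08). Gene 54315 had 40107 and 25082 reads on pine, against 215, 153 and 197 on maltose, a difference of 7.75 ± 0.20 (SE; limma adjusted p = 1.26e-08). On pine these were the highest values of the 51 genes. On pine, gene 872085 had a difference from maltose of -4.28 ± 0.45 (SE; limma adjusted p = 1.41e-06). For gene 624051 it was -2.92 ± 0.17 (SE; limma adjusted p = 2.49e-08).

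Genes 1119518 and 969318 had the largest rises on wheat straw and on aspen too. On wheat straw the difference was 10.12 ± 0.21 for gene 1119518 (SE; adjusted p of the limma fit 2.04e-09) and 9.97 ± 0.24 for gene 969318 (adjusted p 5.83e-09). The falls there were -3.39 ± 0.16 for gene 624051 (adjusted p 1.63e-09) and -2.48 ± 0.41 for gene 872085 (adjusted p 8.51e-05). On aspen gene 969318 led, with 10.46 ± 0.24 (adjusted p 5.01e-09), ahead of gene 1119518 with 9.57 ± 0.21 (adjusted p 3.03e-09). The falls on aspen were -4.17 ± 0.16 for gene 624051 (adjusted p 3.09e-10) and -4.06 ± 0.41 for gene 872085 (adjusted p 6.51e-07). The wheat straw and aspen libraries of genes 1119518 and 969318 could not be resolved, so these errors come from their pine and maltose libraries.

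Most of the cellulose-peaking genes had their lowest plant value on pine. Pine was the lowest of the 3 in 39 of the 51 genes (76.5%) and in 224 of all 878 (25.5%). Compared with wheat straw, 30 of the 51 genes were lower on pine (58.8%) and 0 higher, where 9.92% of all tested genes were lower and 7.5% higher (17.4% in either direction). By unadjusted limma p under 0.05, 45 of the 51 differed, as did 48% of all tested genes, and 5 of the 51 had a positive difference. The median difference of pine minus wheat straw was -1.23 in the 51 genes and 0.04 over all tested genes. The median corresponds to a 2.35-fold higher value on wheat straw. With library values on every substrate required, 37 of all genes were higher and 47 lower after quantile normalization, against 51 and 42 without it.

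Gene 1048346 fell most on pine relative to wheat straw. It had 929 and 511 reads on pine, against 6273, 4957 and 3971 on wheat straw, a difference of -2.56 ± 0.17 (log2, SE; limma adjusted p = 2.62e-06). Its pine libraries, at 9.93 and 9.63, lay well below its wheat straw libraries, at 12.48, 12.21 and 12.35. Gene 487237 had 13.02 on pine and 15.48 on wheat straw, a difference of -2.46 ± 0.22 (SE; limma adjusted p = 0.000155), with no libraries recovered on wheat straw. Of the 39 genes with libraries on both substrates, 33 had every pine library below every wheat straw library, 3 above, and 3 overlapped. Over the 768 genes recovered on both, 30.1% had every pine library below and 38.5% above. Restricted to genes recovered on both, 19 of 39 were lower and 0 higher, where 8.45% of all genes so tested were lower and 8.19% higher. Without wheat straw library A or C, 19 of 39 were lower, and without library B, 19 were lower and 1 higher. Fits with 1 pine library left take the spread on pine from the other groups, and their counts are not read here.

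Relative to wheat straw, 9 of the 51 genes fell on aspen (17.6%) and 0 rose, where 17.3% of all tested genes fell and 6.23% rose (23.5% in either direction). The share that fell is near that of the table. The unadjusted limma p was under 0.05 for 25 of the 51 and for 58.7% of all tested genes. Gene 872085 had a difference of -1.59 ± 0.41 (SE; limma adjusted p = 0.0047), at the few reads given above. Gene 1113770 had libraries at 10.76, 10.84 and 10.86 on aspen, against 12.40, 12.26 and 12.31 on wheat straw, and fell by 1.5 log2 units (SE 0.34, with an adjusted p of 0.00291 in limma). With the median difference between libraries removed, 6 of the 51 fell on aspen and 0 rose. Of all 868 genes so tested, 132 fell and 60 rose. With library values on every substrate required, 69 of all genes were higher on aspen and 80 lower after quantile normalization, against 49 and 97 without it. Of the 16 peaking genes among them, 1 rose and 5 fell after it, against 0 and 5 without it.

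Aspen and pine were then compared directly. Of the 51 genes, 22 were higher on aspen than on pine (43.1%) and 3 lower (5.88%), where 7.27% of all tested genes were higher and 16.7% lower (24% in either direction). The median difference was 0.68 in the 51 genes and -0.23 over all tested genes. The second value is close to the shift between the libraries of the 2 woods given below, so its sign is not read further. The largest rises were in gene 1037242, with 13.73 on aspen and 10.73 on pine, a difference of 3.00 ± 0.26 (log2, SE; limma adjusted p = 6.73e-05), and gene 969318, with 14.90 and 12.09, a difference of 2.81 ± 0.27 (SE; limma adjusted p = 0.000115). Neither had libraries recovered on aspen. Gene 464708 had libraries at 9.47, 9.62 and 9.46 on aspen, against 10.61 and 11.12 on pine, a difference of -1.35 ± 0.28 (SE; limma adjusted p = 0.00148). For gene 624051 it was -1.25 ± 0.17 (SE; limma adjusted p = 0.000125).

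The count for aspen against pine depends on genes whose aspen libraries were not resolved. Among the 36 genes recovered on both woods, 11 were higher and 3 lower, where 5.81% of all genes so tested were higher and 16.3% lower. Without aspen library A, 12 were higher and 3 lower, without B 11 and 3, and without C 10 and 3. The aspen libraries lay wholly above the pine libraries in 21 of these 36 genes, wholly below in 7, and overlapped in 8. Over the 786 genes recovered on both woods, 24.4% lay wholly above and 49% wholly below. The pine libraries sat 0.14 above the mean of all libraries at the median gene and the aspen libraries sat at -0.08. With these shifts removed, 25 of the 51 genes were higher on aspen than on pine and 2 lower, and 31 were lower on pine than on wheat straw. For pine against wheat straw, 102 of all 868 genes so tested were then lower and 52 higher. Over all genes the split for aspen against pine was then 87 higher and 96 lower, against 63 and 145 as deposited. Among all genes recovered in every library it was 54 and 58 after quantile normalization, against 34 and 92 without it.

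**Figure D5:**
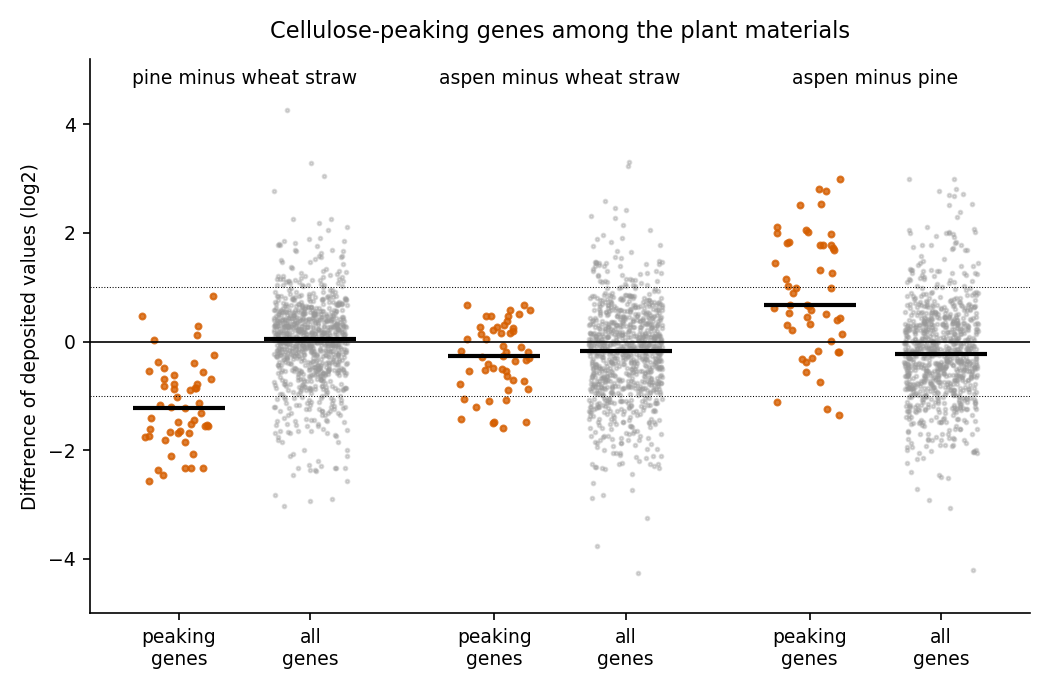
Differences of the deposited log2 values among the plant materials (y axis) for the 51 cellulose-peaking genes (orange) and all 878 genes (grey), with the median as a black bar and dotted lines at 1 and -1. The peaking genes centre at -1.23 for pine minus wheat straw, at -0.26 for aspen minus wheat straw and at 0.68 for aspen minus pine.

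The calls among the plant materials are given by lowest substrate as well. Of the 36 genes with maltose lowest, 28 were called lower on pine than on wheat straw and 21 higher on aspen than on pine. Over all tested genes 9.92% were lower on pine than on wheat straw, 7.27% higher on aspen than on pine and 16.7% lower. Of the 15 others, 2 were called lower on pine than on wheat straw, 1 higher on aspen than on pine and 3 lower. On aspen relative to wheat straw, 4 of the 36 and 5 of the 15 were called lower and 0 higher. Of all tested genes, 17.3% were lower there and 6.23% higher. The median difference of pine minus wheat straw was -1.54 in the 36 genes and -0.55 in the 15. A test of the difference between the 36 and the 15 genes was not made, since the split was read from the same values. The order of the 4 other substrates was wheat straw, aspen, pine and maltose in 17 genes, and aspen, wheat straw, pine and maltose in another 17. Among the 17 genes left, the most common order was maltose, pine, wheat straw and aspen, in 4. Such orders were not counted over all genes.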

How the data were processed

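PolyA RNA libraries of 5 substrates were compared, with samples grouped by the substrate in their titles. The authors deposited 1 column of log2 normalized read counts per substrate for 878 genes, per the file headers; per the submitters' processing notes the tools were TopHat2, HTSeq and DESeq 1.5. How the authors scaled and combined libraries, and why the table holds these genes, is not stated in the labels. No reference genome or annotation was used. The genes and lists were chosen with earlier results of these data known.

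The deposited values were modelled as the mean, over a substrate's libraries, of log2(count × factor + 1), a model found after seeing the data. All 544 values below 5.5 were solved by whole reads with 1 factor per library. Each value was then searched for whole counts that gave it within 2.2e-14 (1e-13 from level 10), with libraries allowed 6 to 1 from the mean (log2), narrower at high levels. A value was used where exactly 1 set of counts was found: 3960 of 4390, with 385 too high to search, 32 with several sets and 13 with 0. Of 876 decoy values in the wider limits 2 gave a single set, and of 124 in the narrowest 16 did. In simulated columns 3934 of 4390 values were recovered, 6 wrongly. Genes of high level with a large spread are thereby left out. Recovered reads ran from 711829 to 2921286 per library, over the 741 to 878 genes recovered on its substrate.

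The fit takes substrate means from the deposited columns and the spread from recovered libraries. Variances were moderated with limma 3.58.1 in R 4.3.3 (mean-variance trend, 1 mean per substrate), with 3 to 9 residual degrees of freedom for the 51 genes. On the 691 genes with every library the p-values equalled those of limma's own functions within rounding. Genes at 4 or more (log2) in at least 2 libraries were tested (867), by a two-sided test in 7 comparisons, each with its own Benjamini-Hochberg adjustment. On simulated data, 1 set per comparison, the test called 94.8% to 100% of genes changed by 2 (log2). It called 40.2% to 50.5% of genes changed by 1, the size of the threshold itself, and at most 3 unchanged genes. Each simulated gene had 1 SD for all substrates, so the simulation cannot judge errors taken from other substrates. Without names, the planned gene lists could not be used, and genes are named by rule, at most 2 per direction: the largest distances, highest and median cellulose values, those beside the threshold, and the largest called rises and falls. The search ran in Python 3.11.15 with NumPy 2.4.6 and numba 0.67.0. Alternatives (scaling, filter, pseudocount, genes tested, variance trend, libraries left out, thresholds) are given at the end.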

Additional observations from a re-analysis of the deposited data

How the results depend on the processing

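No paired analysis was possible because the recovered libraries carry no replicate number. All 408 refitted values of the named genes kept their direction. Calls from the fits with 1 pine library left are not read, and in all other fits these values also kept their call. These genes were named for the largest called differences, so little is read from this. Leaving out a cellulose library, the low-value filter or the variance trend cannot change the size of these differences. Settings limited to genes recovered in every library could not refit the genes named for the largest rises, nor some of those named for falls. The counts of called genes stayed within 1.5 times the main ones with no filter on low values, with no variance trend and with library medians set equal. Restricting the fit to the 16 peaking genes recovered in every library lowered them to 6, 8, 8, 6, 5, 4 and 4, with fewer genes to call. Of the 16, 4 rose and 2 fell on plant materials against maltose, where 139 of the 680 genes so tested rose and 127 fell. For wheat straw against maltose it was 6 and 2 (153 and 131 of all). For aspen it was 4 and 4 (130 and 149), and for pine 3 and 3 (169 and 126). Against maltose, rises and falls on aspen and on pine were thus equal in number in these 16, unlike in the 51. For aspen against wheat straw, 0 rose and 5 fell (49 and 97 of all). For pine against wheat straw it was 0 and 4 (51 and 42), and for aspen against pine 2 and 2 (34 and 92). With 4 added in place of 1 in these genes the counts in either direction, in the same order, were 6, 8, 8, 5, 5, 4 and 4. After quantile normalization they were 5, 7, 7, 6, 6, 7 and 4. In a fit added after seeing the data, over genes recovered on the substrates compared, 23, 25, 19 and 14 were called for plant materials against maltose, aspen against maltose, pine against wheat straw and aspen against pine.

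Leaving out 1 library at a time gave 23 to 38 calls for plant materials against maltose, 28 to 41 for wheat straw against maltose, 25 to 40 for aspen against maltose and 34 to 35 for pine against maltose. It gave 6 to 9 for aspen against wheat straw, 19 to 30 for pine against wheat straw and 13 to 25 for aspen against pine. Genes without recovered reads on the substrate of the left-out library drop out, and with 1 pine library left, pine is assumed to vary like the other groups.

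The rule itself gave 87 genes with a distance of at least 0.5, 19 with at least 2, 31 after quantile normalization of the columns, all of them among the 51, and 49 to 54 without 1 cellulose library. Cellulose libraries of 35 of the 51 genes were not resolved, so these could not leave the group in that last step, which says nothing of their stability, and their spread on cellulose is unknown.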
